A study of Mus musculus with 28 samples.

Results

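The genes described here are 8 heat shock genes (Hspa1a, Hspa1b, Hsph1, Dnajb1, Hspa8, Hsp90aa1, Hspb1 and Bag3) and 2 cold-inducible genes (Cirbp and Rbm3), chosen by gene name from the 45513 rows of a raw count table of mouse heart RNA. All 10 were found and all 10 passed the filter on low counts, which left 24273 genes for testing. The RNA came from ventricular myocardium of adult male C57BL/6 mice fed 1% hydroxyproline, a precursor of oxalate, with 0.5% calcium. Chronic kidney disease (CKD) was induced from 6 weeks of age by staged removal of most kidney tissue, and control mice had a sham operation. On day 7 the mice received by gavage a single dose of Oxalobacter formigenes (Oxf), an oxalate-degrading gut bacterium, or its culture medium alone (vehicle). The libraries, each from a separate mouse, form the groups sham-vehicle (n = 10), CKD-vehicle (n = 6), sham-Oxf (n = 5) and CKD-Oxf (n = 7). The hydroxyproline diet, anaesthesia with ketamine and xylazine and perfusion with buffer were common to all 4 groups. The design names 10 mice per group, and the other mice were not analysed here.

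Heat shock proteins are chaperones that bind unfolded proteins. Heat shock factor HSF1 turns on the inducible members when unfolded proteins build up, as they do at raised temperature, by binding inverted repeats of GAA in their promoters. Cirbp and Rbm3 encode RNA-binding proteins whose transcripts accumulate in mildly cooled cells, and Cirbp and several HSF1 targets follow the daily rhythm of body temperature in opposite phase in mouse tissues. Expression of both sets is therefore a readout of temperature as well as of stress on protein folding. Neither body temperature nor the hour of tissue collection was used here.

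Each library held between 19798965 and 65378162 counts in all. Markers of ventricular cardiomyocytes were abundant in every library, with a sum over 6 genes between 14632 and 41538 CPM, the unit used below for counts scaled to a common library total. The library of mouse 921, a sham-Oxf replicate, stood apart, with 15879 genes holding a count against 27128 or more in every other library. Atrial markers summed to between 15.6 and 1689 CPM, so the libraries differed in atrial RNA. Fewer cells of a type and less RNA per cell cannot be told apart in such bulk tissue. The mice of each group carry a separate run of numbers (901 to 910 sham-vehicle, 913 to 920 CKD-vehicle, 921 to 929 sham-Oxf and 931 to 940 CKD-Oxf), so group and mouse number cannot be told apart between groups.

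Per kilobase of exon, the constitutive Hsp70 gene Hspa8 had the highest level, 105.4 ± 42.2 CPM per kilobase (mean ± SD over 28 libraries). Hspb1 followed at 60.0 ± 22.1, Bag3 at 35.4 ± 7.18 and Hsp90aa1 at 18.0 ± 10.0 CPM per kilobase. The gaps between these neighbours were larger than the SD of either, down to Bag3 and Hsp90aa1, and the gap from Hsp90aa1 to the next gene was smaller than the SD of Hsp90aa1. Below them the levels per kilobase were 8.43 ± 1.82 for Rbm3, 8.36 ± 1.57 for Cirbp, 7.03 ± 11.1 for Hspa1b, 5.75 ± 8.77 for Hspa1a, 4.56 ± 3.44 for Hsph1 and 3.56 ± 1.54 for Dnajb1, and these neighbours did not differ by more than their spread.

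**Figure D1:**
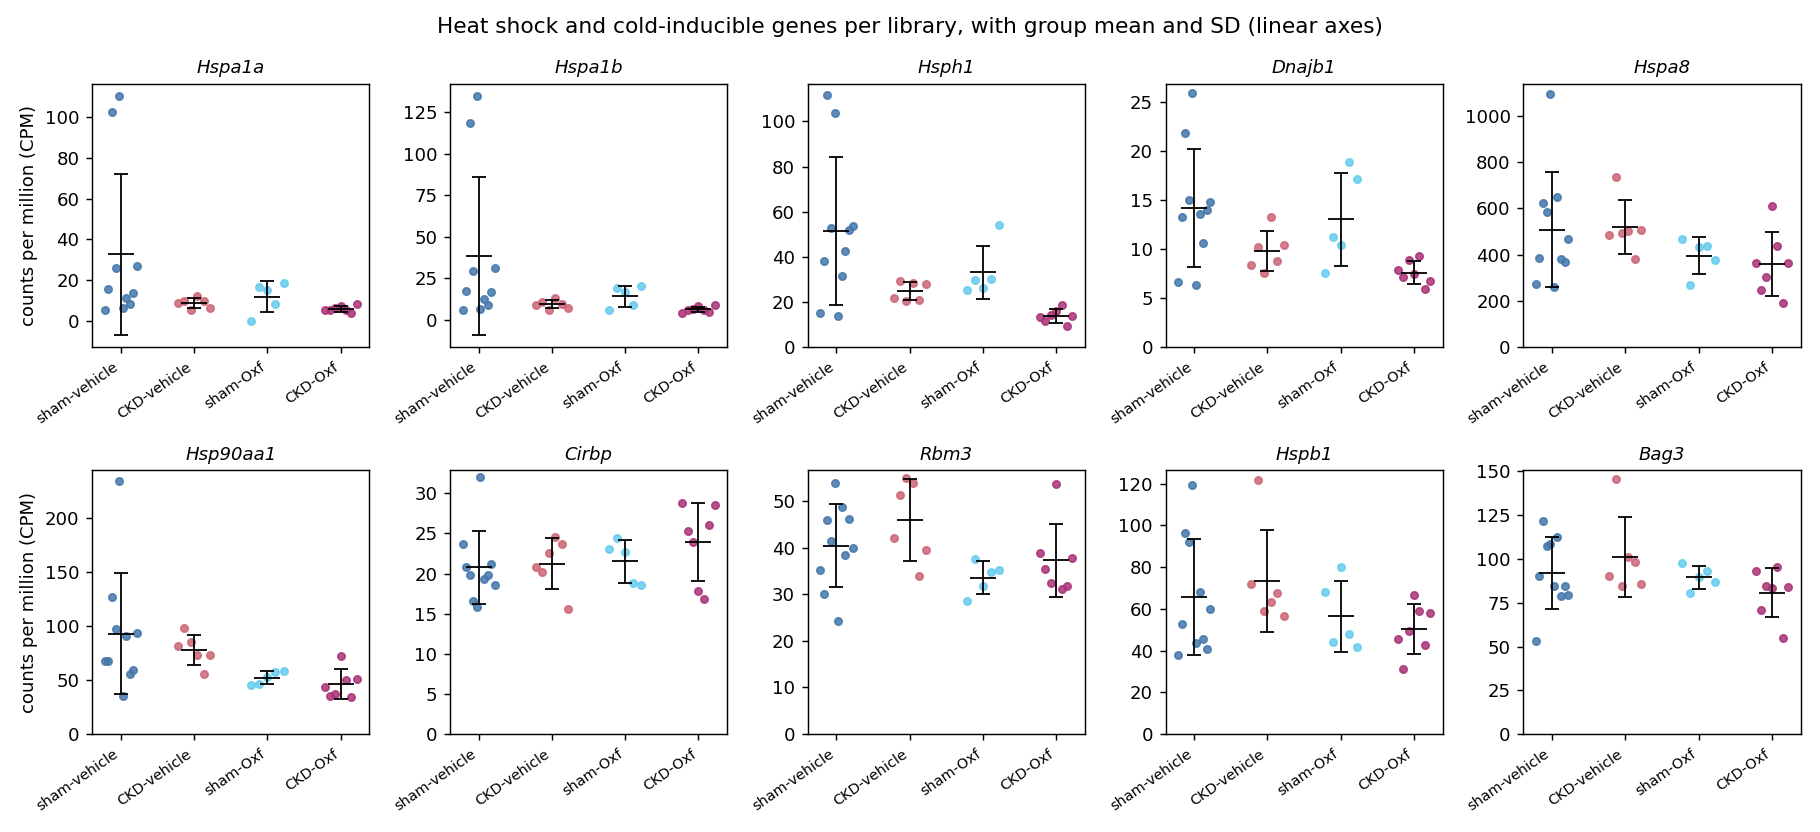
CPM of each gene (vertical axes, linear, 1 panel per gene) in the 4 groups, with 1 point per library and the group mean ± SD as bars. The sham-vehicle points of Hspa1a, Hspa1b and Hsph1 include 2 libraries above 100 CPM, and the CKD-Oxf points of Hsph1 all lie below 19 CPM.

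Hspa1a (ENSMUSG00000091971, chr17:34969190-34972156, minus strand, mm10) and Hspa1b (ENSMUSG00000090877, chr17:34956436-34959238, minus strand) encode the stress-inducible Hsp70 proteins. In the reference their promoters, here the 250 bases before the RefSeq start (GRCm38.p6), differed at 3 bases (98.8% identical). They are shown because both carry the same heat shock element at the same place, in capitals.
Hspa1a, chr17:34972157-34972406, minus strand: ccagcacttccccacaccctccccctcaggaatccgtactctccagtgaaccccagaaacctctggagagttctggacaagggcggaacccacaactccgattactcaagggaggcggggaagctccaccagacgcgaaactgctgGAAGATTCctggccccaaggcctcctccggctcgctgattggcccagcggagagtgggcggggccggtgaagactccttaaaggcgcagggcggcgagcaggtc
Hspa1b, chr17:34959239-34959488, minus strand: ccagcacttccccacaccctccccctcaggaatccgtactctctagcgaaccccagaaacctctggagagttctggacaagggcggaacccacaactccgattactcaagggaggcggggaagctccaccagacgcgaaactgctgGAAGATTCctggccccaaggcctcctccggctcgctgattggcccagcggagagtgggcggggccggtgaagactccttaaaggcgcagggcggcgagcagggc

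The element searched was GAANNTTC or TTCNNGAA, each its own reverse complement, so that both strands were covered. Of the 10 genes, 7 had an entry in the RefSeq promoter table, and Hspa8, Hsp90aa1 and Rbm3 had none. The element stood in the promoters of Hspa1a, Hspa1b, Hspb1 and Hsph1, 4 of 7 genes. Counted by table entries, since 3 genes have 2 each, 5 of 10 entries held it, against 12.8% of all 32851 entries. It did not stand in the windows of Bag3, Cirbp or Dnajb1. A longer element of 3 alternating units was in 0 of the 10 entries and in 0.47% of all promoters. Hspb1 carried 2 elements, beginning 117 and 97 bases before the start. The Hsph1 element began 33 bases before the upstream of its 2 RefSeq starts. In the GENCODE annotation Hsph1 starts further upstream, at chr5:149636376, so by that start the element lies just inside the gene. A site of 30 bases around it is shown.
Hspb1, chr5:135887669-135887918, plus strand: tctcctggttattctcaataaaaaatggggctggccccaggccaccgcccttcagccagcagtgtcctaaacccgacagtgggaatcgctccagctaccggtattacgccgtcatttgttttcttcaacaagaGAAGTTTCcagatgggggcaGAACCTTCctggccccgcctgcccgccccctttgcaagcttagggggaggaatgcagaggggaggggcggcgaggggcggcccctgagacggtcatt
Hsph1, chr5:149636351-149636380, minus strand: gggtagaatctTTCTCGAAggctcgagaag

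The transcripts of the inducible Hsp70 genes are alike as well: 58.8% of the 50-base windows of Hspa1a occur in Hspa1b, and 62.3% of those of Hspa1b in Hspa1a. How such reads were counted is not given in the sources used here, so the split between the pair is uncertain. A coding gene on the other strand, Gm20481, also overlaps the exon of Hspa1a. Hspa1a counts were 0.816 to 1.22 times Hspa1b counts in 27 libraries (median 0.905). In mouse 921 Hspa1a had 1 count and Hspa1b 119.

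Hspa1b was high in 2 of the 10 sham-vehicle mice and low elsewhere. In sham-vehicle it ran from 6.03 CPM over a median of 16.9 to 135 CPM, and mice 903 and 905 held 118 and 135 CPM against at most 31.4 in the other 8. The CKD-vehicle range was 6.11 to 13.0 CPM (median 9.24). The sham-Oxf values were 5.64, 18.9, 16.5, 9.16 and 20.5 CPM. The CKD-Oxf range was 4.16 to 8.81 CPM (median 5.80). All 4 ranges overlapped, with group means ± SD of 38.2 ± 47.5 (sham-vehicle, n = 10), 9.26 ± 2.45 (CKD-vehicle, n = 6), 14.1 ± 6.43 (sham-Oxf, n = 5) and 6.25 ± 1.72 CPM (CKD-Oxf, n = 7).

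Hspa1a repeated this pattern. Its sham-vehicle values ran from 5.42 to 111 CPM (median 14.6), with 102.4 CPM in mouse 903 and 111 CPM in mouse 905. The other ranges were 5.13 to 11.9 CPM in CKD-vehicle (median 9.21) and 3.92 to 8.42 CPM in CKD-Oxf (median 5.50). The sham-Oxf values were 0.0474 (the single count of mouse 921), 16.8, 15.3, 8.21 and 18.7 CPM.

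Hsph1 (ENSMUSG00000029657, chr5:149614287-149636376, minus strand) encodes an Hsp110 protein that exchanges nucleotide on Hsp70. It ran from 13.8 to 112 CPM in sham-vehicle (median 47.3), with mice 903 and 905 highest at 112 and 103.7 CPM. In CKD-vehicle it lay between 20.7 and 29.5 CPM (median 24.9). The sham-Oxf values were 25.4, 29.6, 26.4, 30.4 and 54.0 CPM. In CKD-Oxf it lay between 9.50 and 18.7 CPM (median 13.8). All 7 CKD-Oxf values were below every CKD-vehicle and every sham-Oxf value, whereas 2 sham-vehicle mice (13.8 and 15.2 CPM) fell inside the CKD-Oxf range. Hsph1 alone among the 10 genes had ranges that did not overlap, in CKD-Oxf against CKD-vehicle (1 of 10 genes, against 0.478% of all tested genes) and in CKD-Oxf against sham-Oxf (1 of 10, against 0.272%). For CKD-vehicle against sham-vehicle the count was 0 of 10 (0.128% of all genes), and for sham-Oxf against sham-vehicle 0 of 10 (0.227%).

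Dnajb1 (ENSMUSG00000005483, chr8:83608193-83612653, plus strand) encodes the Hsp40 co-chaperone that stimulates Hsp70. It ran from 6.35 to 25.9 CPM in sham-vehicle (median 13.7), with mouse 905 highest and mouse 903 next at 21.8 CPM. It ran from 7.58 to 13.3 CPM in CKD-vehicle (median 9.51) and from 5.91 to 9.29 CPM in CKD-Oxf (median 7.43). The sham-Oxf values were 7.59, 11.3, 10.4, 18.8 and 17.1 CPM, so 4 of the 7 CKD-Oxf values lay below the lowest of sham-Oxf.

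Hsp90aa1 (ENSMUSG00000021270, chr12:110690605-110702728, minus strand) encodes the inducible form of Hsp90, and it was lower in the mice given Oxf. The vehicle groups ran from 34.98 over a median of 79.5 to 234 CPM (sham-vehicle) and from 55.8 over 77.7 to 98.3 CPM (CKD-vehicle). The sham-Oxf values were 45.1, 46.6, 52.6, 57.3 and 58.5 CPM, and CKD-Oxf ran from 34.3 over 43.7 to 72.7 CPM. All 5 sham-Oxf values were below the sham-vehicle median, and 6 of 7 CKD-Oxf values were below the lowest CKD-vehicle value. The highest sham-vehicle value was that of mouse 905 and the lowest that of mouse 906.

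Hspa8 (ENSMUSG00000015656, chr9:40800984-40810087, plus strand), the constitutive Hsp70 gene, whose exons overlap those of 3 small nucleolar RNA genes, ran from 259 to 1094 CPM in sham-vehicle (median 427), with mouse 905 highest. It ran from 382 to 737 CPM in CKD-vehicle (median 499) and from 190 to 608 CPM in CKD-Oxf (median 365). The sham-Oxf values were 468, 269, 431, 436 and 376 CPM. The groups overlapped, and 5 of 7 CKD-Oxf values were below the lowest CKD-vehicle value.

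Hspb1 (ENSMUSG00000004951, chr5:135887919-135889563, plus strand) encodes a small heat shock protein that holds unfolding proteins in solution. Its medians were 56.2 (sham-vehicle, range 37.7 to 120), 65.3 (CKD-vehicle, 56.7 to 122), 48.0 (sham-Oxf, 41.5 to 80.05) and 49.5 CPM (CKD-Oxf, 31.0 to 66.8). Bag3 (ENSMUSG00000030847, chr7:128523616-128546981, plus strand) encodes a co-chaperone that joins Hsp70 to small heat shock proteins in the turnover of damaged muscle proteins. Its medians were 87.3 (sham-vehicle, range 53.1 to 122), 94.2 (CKD-vehicle, 84.8 to 146), 89.7 (sham-Oxf, 80.4 to 97.7) and 83.8 CPM (CKD-Oxf, 54.8 to 95.6). The ranges of both genes overlapped in every comparison. In CKD-vehicle mouse 914 was the highest for both, at 122 CPM of Hspb1 and 146 CPM of Bag3.

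Of the cold-inducible genes, Cirbp had group means that differed by less than the SD of its sham-vehicle values. Cirbp (ENSMUSG00000045193, chr10:80165985-80172786, plus strand) had group means ± SD of 20.8 ± 4.55 (sham-vehicle), 21.2 ± 3.21 (CKD-vehicle), 21.5 ± 2.66 (sham-Oxf) and 23.9 ± 4.83 CPM (CKD-Oxf). Its lowest values were 15.6 CPM in a CKD-vehicle mouse and 15.8 CPM in mouse 905, and its highest was 32.0 CPM in sham-vehicle mouse 906. The sham-Oxf values of Cirbp were 23.1, 24.4, 22.7, 18.8 and 18.6 CPM. Rbm3 (ENSMUSG00000031167, chrX:8138975-8145880, minus strand), whose start overlaps an antisense gene, Rbm3os, had means ± SD of 40.4 ± 8.90, 45.9 ± 8.71, 33.6 ± 3.48 and 37.3 ± 7.80 CPM in the same order. The Rbm3 values of sham-Oxf were 28.6, 37.7, 31.8, 34.7 and 35.2 CPM, all below the sham-vehicle median of 40.6 CPM. Rbm3 was highest in CKD-vehicle, at 55.0 CPM, and lowest in sham-vehicle mouse 906, at 24.3 CPM.

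The first comparison asked how the heart differed in CKD without the bacterium. In CKD-vehicle against sham-vehicle 0 of the 10 genes passed the threshold of an adjusted p of 0.05 in edgeR, where 0.00824% of all tested genes did. An unadjusted p under 0.05 was reached by 4 of the 10 and by 4.46% of all tested genes. DESeq2 and limma also called 0 of the 10, where they called 0.119% and 0.383% of all tested genes. The log2 fold changes of these 4 were -2.04 ± 0.57 (SE) for Hspa1b, -1.92 ± 0.65 for Hspa1a, -1.05 ± 0.32 for Hsph1 and -0.54 ± 0.24 for Dnajb1, with adjusted p from edgeR of 0.739, 0.955, 0.952 and 0.955. For each of the 4 genes all 6 CKD-vehicle values lay below the sham-vehicle median. Without mice 903 and 905 the differences were -0.84 ± 0.33, -0.75 ± 0.48, -0.63 ± 0.25 and -0.31 ± 0.20, all closer to 0. The other 6 genes lay between -0.25 ± 0.26 (Hsp90aa1) and 0.19 ± 0.14 (Rbm3). Over the 10 genes the median log2 fold change was -0.11, with 5 values below 0, against -0.03 over all genes tested.

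The next comparison set the CKD mice given Oxf against those given vehicle. In CKD-Oxf against CKD-vehicle 0 of the 10 genes passed in edgeR, where 0.033% of all tested genes did. An unadjusted p under 0.05 was reached by 3 of the 10, against 13.1% of all tested genes. The log2 fold changes of those 3 were -0.84 ± 0.33 for Hsph1, -0.75 ± 0.28 for Hsp90aa1 and -0.54 ± 0.25 for Hspb1, with adjusted p from edgeR of 0.299, 0.276 and 0.357. DESeq2 called 0 of the 10, where it called 0.783% of all tested genes. Limma with sample weights called 4 (Hsph1, Hspa8, Hsp90aa1 and Rbm3), where it called 15.0% of all tested genes. Values were below 0 for 9 of the 10 genes, and Cirbp was at 0.17 ± 0.15. The median over the 10 genes was -0.53, against 0.03 over all genes tested.

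In sham mice the same comparison, sham-Oxf against sham-vehicle, gave 0 of 10 genes past the threshold in edgeR, where 0% of all tested genes passed. An unadjusted p under 0.05 was found for 3 of the 10 and for 12.6% of all tested genes. DESeq2 and limma called 0 of the 10, where they called 0.54% and 0.14% of all tested genes. Hspa1a was at -1.45 ± 0.68, Hspa1b at -1.43 ± 0.59 and Hsp90aa1 at -0.84 ± 0.28 on the log2 scale, with adjusted p from edgeR of 0.373, 0.315 and 0.235. Without mice 903 and 905 these became -0.25 ± 0.50, -0.19 ± 0.35 and -0.47 ± 0.20. The 10 genes had a median of -0.31, with 9 below 0, against -0.04 over all genes tested. This comparison and the first share the sham-vehicle mice.

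CKD-Oxf against sham-Oxf had 0 of 10 genes past the threshold in edgeR, in DESeq2 and in limma. These called 0%, 0.4% and 0% of all tested genes. An unadjusted p under 0.05 in edgeR was reached by 2 of 10 genes, against 8.23% of all tested genes. Hsph1 was at -1.26 ± 0.35 and Dnajb1 at -0.78 ± 0.26, with adjusted p from edgeR of 0.227 and 0.351. Mice 903 and 905 have no part in the group means here, and without them in the shared fit the values were -1.28 ± 0.26 and -0.80 ± 0.22. The median over the 10 genes was -0.17, with 8 below 0, against 0.05 over all genes tested.

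Averaged over surgery, Hsp90aa1 fell in the mice given Oxf, and it was the 1 gene of the 10 to pass in edgeR, where 2.81% of all tested genes passed. Its log2 fold change was -0.79 ± 0.20 with an adjusted p of 0.0351 in edgeR. The call was narrow: when 1 mouse at a time was left out it held in 16 of 28 fits, with adjusted p from 0.00611 to 0.0715. Of the 10 genes, 7 had an unadjusted p under 0.05, as had 23.0% of all tested genes, and 9 were below 0. Hspa1b was at -0.997 ± 0.41, Hspa1a at -0.996 ± 0.47, Hsph1 at -0.74 ± 0.24, Hspa8 at -0.45 ± 0.19, Hspb1 at -0.38 ± 0.18 and Rbm3 at -0.28 ± 0.11, with adjusted p between 0.0704 and 0.197 in edgeR. Cirbp was at 0.11 ± 0.10. Sham-vehicle mice 903 and 905 enter this comparison, and without them Hsp90aa1 was at -0.61 (adjusted p in edgeR 0.0423). Over the alternatives run, Hspa1b lay between -1.09 and -0.37 and Hspa1a between -1.17 and -0.39. The median over the 10 genes was -0.41, against 0.00 over all genes tested.

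**Figure D2:**
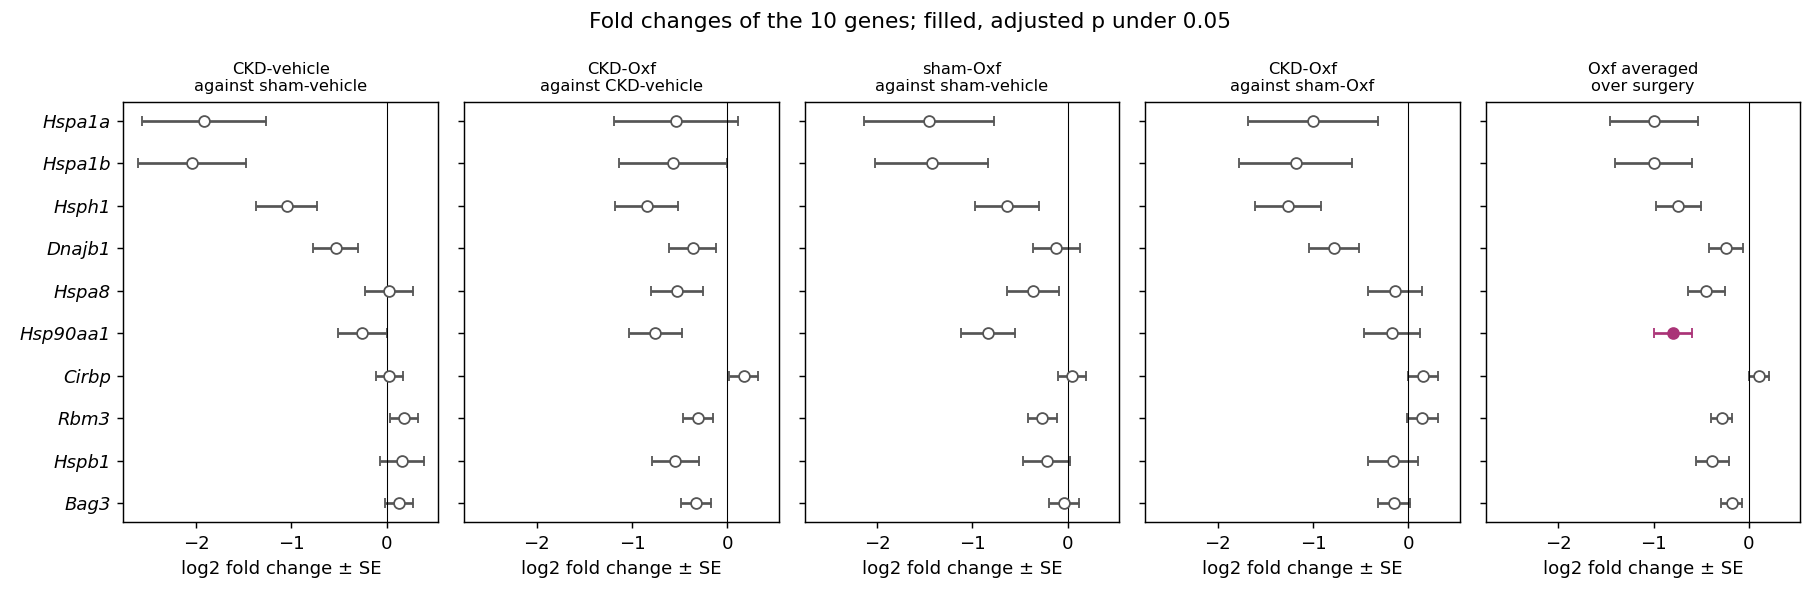
Log2 fold change with its SE (horizontal axis) of the 10 genes in 5 comparisons, 1 panel each, with a filled symbol for an adjusted p under 0.05 in edgeR. The filled symbol is Hsp90aa1 at -0.79 for Oxf averaged over surgery. Cirbp lies near 0 in every panel, between 0.03 and 0.17.

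The RNA content and the clock state of the libraries also differed between the groups compared. Reads of 7SL RNA, the noncoding RNA of the signal recognition particle, had a median share of counts of 10.1% (sham-vehicle), 14.04% (CKD-vehicle), 2.70% (sham-Oxf) and 7.73% (CKD-Oxf). A clock score, the mean log2 CPM of 7 clock output genes around Dbp minus that of the activators Arntl, Npas2 and Clock, had medians of 1.28, -0.37, 3.83 and 2.96 in the same order. With the 7SL share as a covariate Hsp90aa1 was at -0.45 (adjusted p in edgeR 0.230), and with the clock score at -0.69 (adjusted p 0.588). Both measures are partly confounded with the groups.

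Whether the difference between Oxf and vehicle mice was unlike in CKD and sham was tested by the interaction. It called 0 of the 10 genes and 0% of all genes in edgeR. An unadjusted p under 0.05 was reached by 0 of the 10, against 3.55% of all tested genes. DESeq2 and limma called 0 of the 10 and 0% of all tested genes. The largest interaction values were 0.92 ± 0.92 for Hspa1a and 0.86 ± 0.80 for Hspa1b, which became -0.28 ± 0.70 and -0.37 ± 0.48 without mice 903 and 905.

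Of 23 further HSF1 and cytosolic chaperone genes, 3 fell and 0 rose in edgeR with Oxf averaged over surgery, where 2.81% of all tested genes passed in either direction. These were Cacybp (-0.81, adjusted p 0.0367), St13, which encodes an Hsp70 co-chaperone (-0.45, adjusted p 0.0438), and Chordc1, which encodes an Hsp90 co-chaperone (-0.65, adjusted p 0.0455). Of 6 mitochondrial and endoplasmic reticulum chaperone genes 3 fell, namely Hsp90b1, the Hsp90 of the endoplasmic reticulum (-0.53, adjusted p 0.0193), Hspa9, the mitochondrial Hsp70 (-0.67, adjusted p 0.0386), and Hspe1, the mitochondrial co-chaperonin (-0.75, adjusted p 0.0419). Of 6 small heat shock protein genes 0 passed in edgeR, 4 had an unadjusted p under 0.05 (23.0% of all tested genes), and all 6 were below 0. Of 13 genes of SR splicing factors and their CLK kinases, whose activity depends on temperature, Srsf4 rose (0.34, adjusted p 0.0421) and 0 fell. The medians of the 4 lists were -0.23, -0.59, -0.50 and 0.00, against 0.00 over all genes tested. In the other pairwise comparisons and the interaction 0 genes of these lists passed in edgeR. An unadjusted p under 0.05 was most frequent there in CKD-Oxf against CKD-vehicle, with 8 of 23, 5 of 6, 3 of 6 and 4 of 13 genes in the order of the lists, where 13.1% of all tested genes reached it.

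Against mouse number within groups, edgeR and DESeq2 called none of the 10 genes, and limma called 2 in CKD-vehicle. With a slope common to the 4 groups 0 of 10 genes passed in edgeR, where 0.0371% of all tested genes did. An unadjusted p under 0.05 was reached by 0 of the 10, against 5.5% of all tested genes. The slopes lay between -0.034 ± 0.032 (Hspb1) and 0.029 ± 0.032 (Dnajb1) log2 units per mouse number. With a slope for each group, the sham-vehicle slope called 0 of 10 genes (0.0124% of all genes), the CKD-vehicle slope 0 of 10 (0.00412%), the sham-Oxf slope 0 of 10 (1.42%) and the CKD-Oxf slope 0 of 10 (0%). An unadjusted p under 0.05 was reached by 0, 0, 1 and 0 genes in the same order, against 0.902%, 2.44%, 19.9% and 4.88% of all tested genes. The single one was Dnajb1 in sham-Oxf, at 0.16 ± 0.072 log2 units per mouse number (adjusted p in edgeR 0.229). The test of a difference between the 4 slopes called 0 of 10 genes and 0% of all genes in edgeR. It had 0 of the 10 at an unadjusted p under 0.05, against 7.43% of all tested genes. DESeq2 called 0 of the 10 in each slope test. Of all tested genes it called 0.165% for the common slope and 0.639% for the difference of slopes. For the sham-vehicle, CKD-vehicle, sham-Oxf and CKD-Oxf slopes it called 0.0412%, 0.00412%, 7.63% and 0.0206%. Limma called 0 of the 10 in each but the CKD-vehicle slope. There it called Hspb1 (-0.16 ± 0.045) and Bag3 (-0.11 ± 0.030) and 34.6% of all tested genes. For the common slope and the difference limma called 0.128% and 4.16% of all tested genes. For the sham-vehicle, sham-Oxf and CKD-Oxf slopes it called 0.0453%, 0% and 3.9%.

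**Figure D3:**
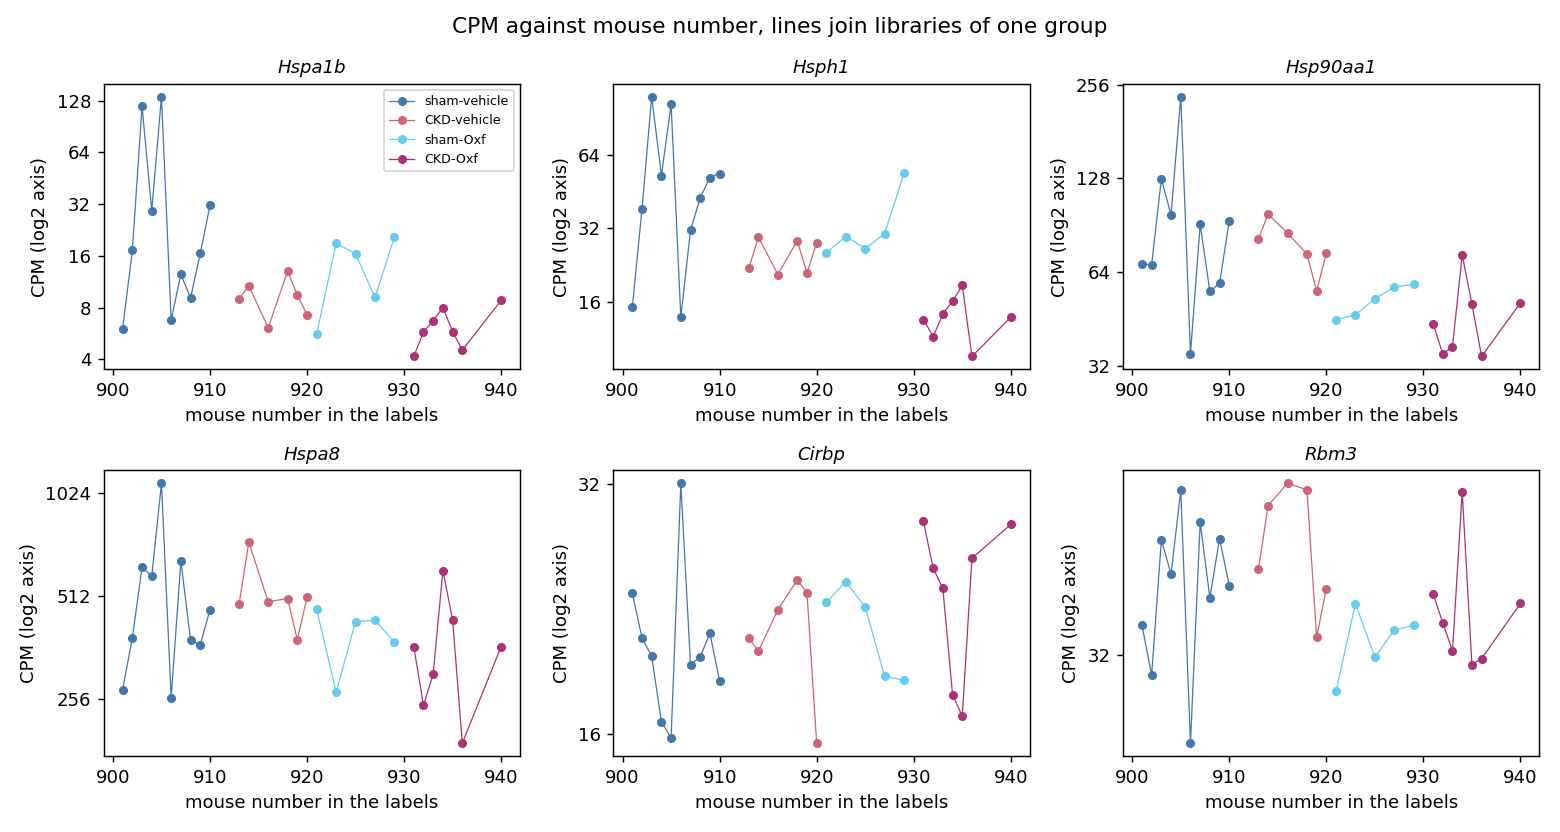
CPM (vertical axes, log2) of 6 genes against the mouse number in the labels (horizontal axis), with lines joining the libraries of a group. Mice 903 and 905 form peaks of Hspa1b and Hsph1, and mouse 906 is a trough of Hsp90aa1 and Rbm3 and the peak of Cirbp at 32.0 CPM.

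In sham-vehicle, neighbouring mouse numbers held the extremes. Mouse 905 had the highest Hspa1a, Hspa1b, Dnajb1, Hspa8, Hsp90aa1, Hspb1 and Rbm3 of its group and the lowest Cirbp. Mouse 906 had the lowest Hsph1, Dnajb1, Hspa8, Hsp90aa1 and Rbm3 and the highest Cirbp. The 7SL share was 19.9% in mouse 905, the highest of the group, and 2.30% in mouse 906, the lowest. Skeletal muscle markers summed to 385 CPM in mouse 906 against at most 3.76 CPM in the other 9 sham-vehicle mice. The part of these differences in the extremes was not tested.

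Over the 28 libraries with group means removed, the heat shock genes moved together and Cirbp moved against them, though not in every group. Group means were removed from log2 CPM, Pearson's r was taken over the 28 libraries for all 45 pairs, and p came from 100000 permutations within groups, adjusted over the 45. All 28 pairs of heat shock genes had r above 0, from 0.26 to 0.88 (median 0.66), and 24 passed an adjusted permutation p of 0.05, or 20 with Spearman's rho as well. Cirbp had r below 0 with all 8 heat shock genes, from -0.65 to -0.29, and 5 passed (4 with rho as well). The share of pairs of all tested genes that would pass was not computed. The counts of pairs, here and for Rbm3 below, therefore have no background to be set against. Cirbp against Hspa8 had r = -0.65 (adjusted permutation p = 0.00194) and rho = -0.60 (adjusted permutation p = 0.00616), and r = -0.56 without the 2 libraries farthest from the median. In CKD-vehicle alone, r of Cirbp was above 0 with Hspa1a (0.44), Hspa1b (0.41), Bag3 (0.11) and Hspb1 (0.03). With the other heat shock genes it ran from -0.39 to -0.03. Hsp90aa1 there had r below 0 with Hspa1a (-0.23), Hspa1b (-0.09) and Dnajb1 (-0.06), and the other heat shock pairs had r above 0. Cirbp with the heat shock genes ran from -0.825 to -0.46 in sham-vehicle and from -0.70 to -0.12 in CKD-Oxf. No r was computed within sham-Oxf, where the genes did not all move together. There mouse 921 had the lowest Hspa1a, Hspa1b, Hsph1, Dnajb1 and Hsp90aa1 but the highest Hspa8 and Bag3. Mouse 929 had the highest Hspa1a, Hspa1b, Hsph1 and Hsp90aa1 but the lowest Hspb1, and also the lowest Cirbp.

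Rbm3 did not go with Cirbp. It had r above 0 with all 8 heat shock genes, from 0.33 to 0.73, and 6 passed (3 with rho as well). Rbm3 against Hsp90aa1 had r = 0.73 (adjusted permutation p = 0.000562), rho = 0.58 (adjusted permutation p = 0.00908) and r = 0.59 without the 2 farthest libraries. Between the cold-inducible genes r was -0.40 (adjusted permutation p = 0.0648) and rho -0.22 (adjusted permutation p = 0.282). By group this r was -0.80 (sham-vehicle), 0.27 (CKD-vehicle) and -0.21 (CKD-Oxf). In the same groups Rbm3 had r below 0 with Hspa1a in CKD-vehicle (-0.08) and with Dnajb1 in CKD-Oxf (-0.13). Its other r with heat shock genes there were above 0. No r of Rbm3 was computed within sham-Oxf.

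**Figure D4:**
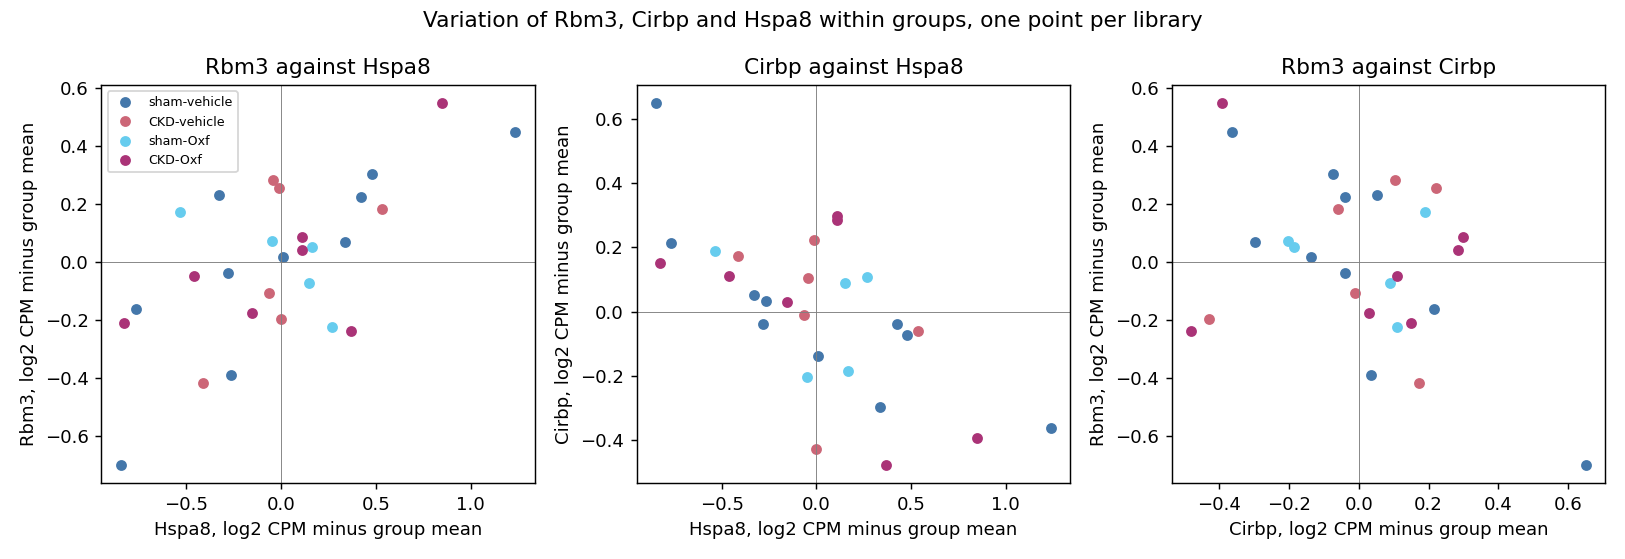
Log2 CPM minus the group mean of Rbm3 against Hspa8 (left), Cirbp against Hspa8 (middle) and Rbm3 against Cirbp (right), with 1 point per library coloured by group. Rbm3 rises with Hspa8 across points (r = 0.64) and Cirbp falls (r = -0.65). Between the cold-inducible genes r = -0.40 did not pass (adjusted permutation p = 0.0648).

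The 7SL share ran with some of these genes. Of the 10 genes, 5 passed an adjusted permutation p of 0.05 over 20 relations for r with the log2 7SL share, which were Hspa8 (0.65), Rbm3 (0.64), Hsp90aa1 (0.54), Hsph1 (0.46) and Cirbp (-0.51). With rho as well, Hspa8 and Rbm3 passed. The share of all tested genes that would pass with the 7SL share was not computed, so it is not known whether these genes stand out. Within groups r for Rbm3 was 0.94 (sham-vehicle), 0.89 (CKD-vehicle) and 0.51 (CKD-Oxf), and 0.47 over all without the 2 farthest libraries. For Cirbp the same values were -0.75, -0.18 and -0.65, and -0.38. No r was computed within sham-Oxf. There mouse 921 had the highest 7SL share (10.3%) and the lowest Rbm3 (28.6 CPM). Mouse 923 had the lowest share (1.83%) and the highest Rbm3 (37.7 CPM). In mice 925, 927 and 929 Rbm3 was 31.8, 34.7 and 35.2 CPM at shares of 2.18%, 2.70% and 3.66%. With the 7SL share removed, the pairs of heat shock genes kept r from 0.33 to 0.87, Cirbp with the 8 had r from -0.54 to -0.12, and Rbm3 with the 8 from 0.12 to 0.63, while Cirbp with Rbm3 was at -0.11. The clock score passed with 0 of the 10 genes, with r from -0.27 to 0.29 and a smallest adjusted permutation p of 0.389.

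Of all tested genes outside the 10, those whose variation within groups was most like that of a member were named by the absolute r over the 28 libraries. For Hsph1 they were Dnaja1, an Hsp40 gene (r = 0.94), AC107815.5 (0.93) and Chordc1 (0.91), and for Hspa1b the same 3 genes, at 0.87, 0.90 and 0.84. AC107815.5 is annotated as a processed pseudogene (chr7:140890887-140892080, plus strand), and 76.6% of its 50-base windows occur in Dnaja1 transcripts, so its counts and those of Dnaja1 may hold the same reads. For Rbm3 they were Dcun1d1 (0.90), Zfp758 (0.90) and Zfp97 (0.90), the last 2 being zinc finger genes. For Cirbp, whose largest r were all below 0, they were Zfp397 (-0.79), Fastkd5 (-0.77) and AC139064.2 (-0.77), an antisense gene in the annotation.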

How the data were processed

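RNA of 28 ventricles was sequenced, 1 library per mouse. The values are the raw gene counts the authors deposited as 1 table. STAR 2.6.1d, featureCounts 1.6.3 and mm10 are named, per the submitters' processing notes; the use of strand and of reads with several matches is not given in the sources used here. No row lacked a name. Identifiers were matched to GENCODE M21 (45465 of 45513).

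Groups came from the labels. Replicates were numbered in record order, so the numbers pair nothing. Genes were filtered with filterByExpr by group (minimum count 10), scaled by TMM and fitted with edgeR 4.0.16 under R 4.3.3 (robust quasi-likelihood F test, 28 libraries, 4 group means), adjusted by Benjamini-Hochberg over 24273 genes at 0.05. SE is the absolute log2 fold change over the square root of F. Slopes used the mouse number centred within groups. CPM is after TMM, and log2 CPM used a prior count of 2. The scripts were tested on simulated data. The alternatives used DESeq2 1.42.0, limma 3.58.1 and those named in the closing section. Further alternatives scaled by DESeq2 size factors or the upper quartile, summed Hspa1a and Hspa1b, ranked mouse number or fitted only the compared groups. All 10 genes are named, at most 3 past the threshold per pathway list, and 3 most alike for 4 members. The members, lists and rules were chosen with earlier results of these data known. Depth per library is given with the description of the libraries.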

Additional observations from a re-analysis of the deposited data

Results flagged for a closer look

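In each group the gap of the highest or lowest library to its neighbour was set against the range of the group (Dixon's ratio). Of 40 combinations of gene and group 6 stood out, where 5 in 100 would be 2. The genes share libraries, so the flags are not independent, and the share over all tested genes was not computed. Hspa1a was lowest in sham-Oxf replicate 1 (mouse 921, ratio 0.844), with 1 count, beside 119 counts of Hspa1b. Hsph1 was highest in sham-Oxf replicate 5 (mouse 929, ratio 0.761), at 54.0 CPM against 30.4 for the next. Rbm3 was highest in CKD-Oxf replicate 4 (mouse 934, ratio 0.589), at 53.6 against 38.9 CPM, in the library with the highest 7SL share of its group, 20.6%. In CKD-vehicle replicate 2 (mouse 914) Hspb1 (ratio 0.691) and Bag3 (ratio 0.671) were both highest. Bag3 was lowest in sham-vehicle replicate 1 (mouse 901, ratio 0.474), at 53.1 against 78.7 CPM. Mice 903 and 905 did not stand out by this ratio for Hspa1a and Hspa1b, because they were high together.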

How the results depend on the processing

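The 20 differences and slopes of single genes with an unadjusted p under 0.05 kept their sign under every alternative run, and 9 of the 12 comparisons had 0 of 10 genes called under every alternative. In CKD-Oxf against CKD-vehicle limma with sample weights called 4 of the 10, among 3639 of all genes (15.0%), and for the slope on mouse number in CKD-vehicle 2, among 8392 (34.6%). For Oxf averaged over surgery, where edgeR called 1, the count was 2 with DESeq2, 4 with limma, 0 with no filter, 2 with at least 10 counts in every library, 0 with the clock score and 0 with the 7SL share as a covariate, and 3 without mice 921 and 934, an alternative chosen after seeing the data, as was leaving out mice 903 and 905. Leaving out a single mouse gave 0 to 4. The 4 (Hsph1, Hspa8, Hsp90aa1 and Rbm3) came without CKD-Oxf replicate 4, and 2 (Hsph1 and Hsp90aa1) without sham-vehicle replicate 1 or 6. The share of all tested genes called in each fit without a single mouse is not given here. These counts therefore have no background to be set against. The call of Hsp90aa1 was lost without sham-vehicle replicates 4 or 7, CKD-vehicle 1, 2 or 3, sham-Oxf 2, 4 or 5, or CKD-Oxf 2, 3, 5 or 6, with adjusted p up to 0.0715. The cause was not tested. Over all genes the 681 calls of that comparison became 2006 with DESeq2, 5336 with limma, 161 with no filter, 1422 with at least 10 counts in every library, 0 with the clock score and 132 with the 7SL share as covariates, and 4707 without mice 921 and 934. Where edgeR called 0 genes, DESeq2 called 131 and limma 34 for sham-Oxf against sham-vehicle, 97 and 0 for CKD-Oxf against sham-Oxf, 0 and 0 for the interaction, 5 and 947 for the CKD-Oxf slope, and 155 and 1009 for the difference of slopes. No paired analysis was possible because the replicate numbers follow the order of the records and tie no mice across groups.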
